A study of Mus musculus with 2 samples.

Results

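The miR-17-92 cluster and its paralogs were examined in microRNA sequencing of the gastrocnemius, a calf muscle. The members were chosen by name: the 6 genes of the miR-17-92 cluster (Mir17, Mir18, Mir19a, Mir20a, Mir19b-1 and Mir92-1), the 3 genes of the miR-106b-25 cluster (Mir106b, Mir93 and Mir25), and Mir92-2, a second gene for the mature miRNA of Mir92-1. They are 10 of the 2202 annotated miRNA genes in the count tables. The samples were 2 female B6CASTF1/J mice, a first-generation cross of C57BL/6J and CAST/EiJ, both 10 days old. For each animal, RNA below 30 bases was selected from total RNA and sequenced as a separate library, labelled biological replicate 1 or 2. The labels name no treatment and no other genotype, so the data hold levels and the spread between these animals, not a contrast between conditions. Whole muscle also contains vessels, blood, nerve and stroma, and fewer cells of a type cannot be told apart from less RNA per cell.

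MicroRNAs are cut from hairpin precursors and guide the silencing complex to mRNAs, mainly through bases 2 to 8 of the mature strand, the seed. The miR-17-92 transcript is known as a target of MYC and E2F factors and is abundant in proliferating cells, including myoblasts. The miR-17 seed is known to repress the cell cycle inhibitor Cdkn1a, and several members repress the pro-apoptotic Bcl2l11. The miR-106b-25 hairpins lie within Mcm7, which encodes a subunit of the replicative helicase. Another paralog, the miR-106a-363 cluster on the X chromosome, contains Mir92-2 and 5 further genes, Mir106a, Mir18b, Mir20b, Mir19b-2 and Mir363.

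Mature sequences show why these genes are read as 4 seed groups. They are the arms for which the miRNA families are named, from RefSeq on build GRCm38.p6, with bases 2 to 8 in capitals. The miR-17 seed is shared by 4 members:

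miR-17-5p (Mir17): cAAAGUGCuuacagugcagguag

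miR-20a-5p (Mir20a): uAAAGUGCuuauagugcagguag

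miR-106b-5p (Mir106b): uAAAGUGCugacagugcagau

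miR-93-5p (Mir93): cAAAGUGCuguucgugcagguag

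The miR-18 seed has 1 member, and the miR-19 seed has 2 on the same transcript:

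miR-18a-5p (Mir18): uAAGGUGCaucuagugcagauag

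miR-19a-3p (Mir19a): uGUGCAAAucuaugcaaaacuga

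miR-19b-3p (Mir19b-1): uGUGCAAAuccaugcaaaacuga

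The miR-25/92 seed is carried by both copies of miR-92a and by miR-25:

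miR-92a-3p (Mir92-1 and Mir92-2): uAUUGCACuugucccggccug

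miR-25-3p (Mir25): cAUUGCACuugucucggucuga

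Positions are counted from 1 at the 5′ end, and the first-named miRNA gives the first base of each change. From miR-17-5p, miR-20a-5p differed at C1U and C12U, and miR-106b-5p at C1U, U10G and G20A over its 21 bases. Between miR-17-5p and miR-93-5p there were 4 changes, U10G, A11U, C12U and A13C. Mature miR-19a and miR-19b differed only at U11C. All 10 members and the 5 other genes of the X cluster matched RefSeq by symbol and by hairpin coordinates.

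The genes lie on 3 chromosomes of build mm10. Mir17 starts the first cluster at chromosome 14, 115043671 to 115043754, plus strand, and Mir92-1 ends it at 115044427 to 115044506. All 6 hairpins overlap an exon of the only annotated transcript of the lincRNA Mir17hg (115042879 to 115046727). Mir106b lies on the minus strand of chromosome 5 at 138165737 to 138165818, where both protein-coding Mcm7 transcripts that span it have an intron. Mir93 (138165523 to 138165610) and Mir25 (138165321 to 138165404) are in introns of the same transcripts, and each also overlaps an exon of 1 annotated retained-intron transcript of Mcm7. Mir92-2 (chromosome X, 52741838 to 52741928, minus strand) has no annotated host gene on its strand.

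The libraries held 3510897 sense reads on miRNA genes in replicate 1 and 3949733 in replicate 2. Levels below are counts per 1000000 of these reads (CPM). A read spans a mature miRNA, so counts were not divided by gene length, and each count sums both arms of a hairpin. The miRNA Mir206, known from skeletal muscle, stood at 115948 and 95264 CPM. Detected here means a level of at least 2 CPM in each animal, and 8 of 9 skeletal muscle markers were detected. Some lay close to that limit, as Mir1a-1 (3.42 and 3.80 CPM) and Mir133a-1 (2.56 and 5.57 CPM). The marker not detected was Mir133a-2 (0.570 and 1.52 CPM). Of the 10 members 8 were detected, against 332 of 2202 genes (15.1%) in all.

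The 10 members together held nearly the same share in each animal, 5972 CPM in replicate 1 and 5964 CPM in replicate 2. That is 0.597% (Wilson 95% interval 0.589% to 0.605%) and 0.596% (0.589% to 0.604%) of the counted reads. The miR-17-92 cluster gave 3891 and 3764 CPM (3828 ± 89.8, mean ± SD, n = 2 here and below). The miR-106b-25 cluster gave 2066 and 2185 CPM (2126 ± 84.2). One cluster was thus slightly lower and the other slightly higher in replicate 2. In miR-17-92 the difference lay mainly in Mir92-1 (847 and 664 CPM). Mir17 was nearly level (1934 and 1921 CPM), and Mir18 and Mir20a were higher in replicate 2. The ratio of the first to the second was 1.88 in replicate 1 (95% interval 1.83 to 1.94, counting error only) and 1.72 in replicate 2 (1.68 to 1.77), and the intervals do not overlap. Among 43 genomic clusters with at least 2 detected genes, built from neighbours at most 10 kb apart on a strand, the summed level of miR-17-92 ranked 17 and that of miR-106b-25 ranked 22. The X cluster, at 61.0 and 69.1 CPM, ranked 37.

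The miR-17 seed group carried most of the reads of both clusters. Mir17, the first hairpin of its transcript, stood at 1934 and 1921 CPM (1928 ± 9.08). It was the highest member and ranked 61 among all genes. The genes closest to it in level were Mir676 (2043 ± 117 CPM) above and Mir98, a let-7 relative (1882 ± 54.1 CPM), below. With 2 libraries, likeness of level is all that can be compared, not a pattern over samples.

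Mir93 of the Mcm7 cluster stood at 1332 and 1423 CPM (1378 ± 64.2), between Mir300 (1384 ± 123 CPM) and Mir134 (1359 ± 192 CPM). Mir20a, from the same transcript as Mir17, stood at 777 and 829 CPM (803 ± 36.9). Mir106b, the first hairpin of the Mcm7 cluster, stood at 419.6 and 453 CPM (436 ± 23.6). In each of these 3 genes the value was higher in replicate 2. The 4 genes kept the order Mir17, Mir93, Mir20a, Mir106b in both animals, and no neighbours in this order overlapped between animals. Below Mir106b the members followed as Mir18, Mir25 and Mir92-2, again with no overlap.

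Over every annotated gene with the miR-17 seed, these 4 members held 99.3% of 4495 CPM in replicate 1 and 99.3% of 4661 CPM in replicate 2. The rest came from the X cluster genes Mir106a, at 19.4 and 17.5 CPM, and Mir20b, at 13.1 and 17.2 CPM. Mir6383, the remaining gene with this seed, had 0 reads in either library. The mature miR-106a differs from miR-17-5p only at U10A, yet Mir17 exceeded Mir106a 99.9-fold in replicate 1 (95% interval 78.7 to 129) and 110.0-fold in replicate 2 (86.8 to 141). No stretch of 18 bases or more of the 4 members occurs in another annotated precursor.

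**Figure D1:**
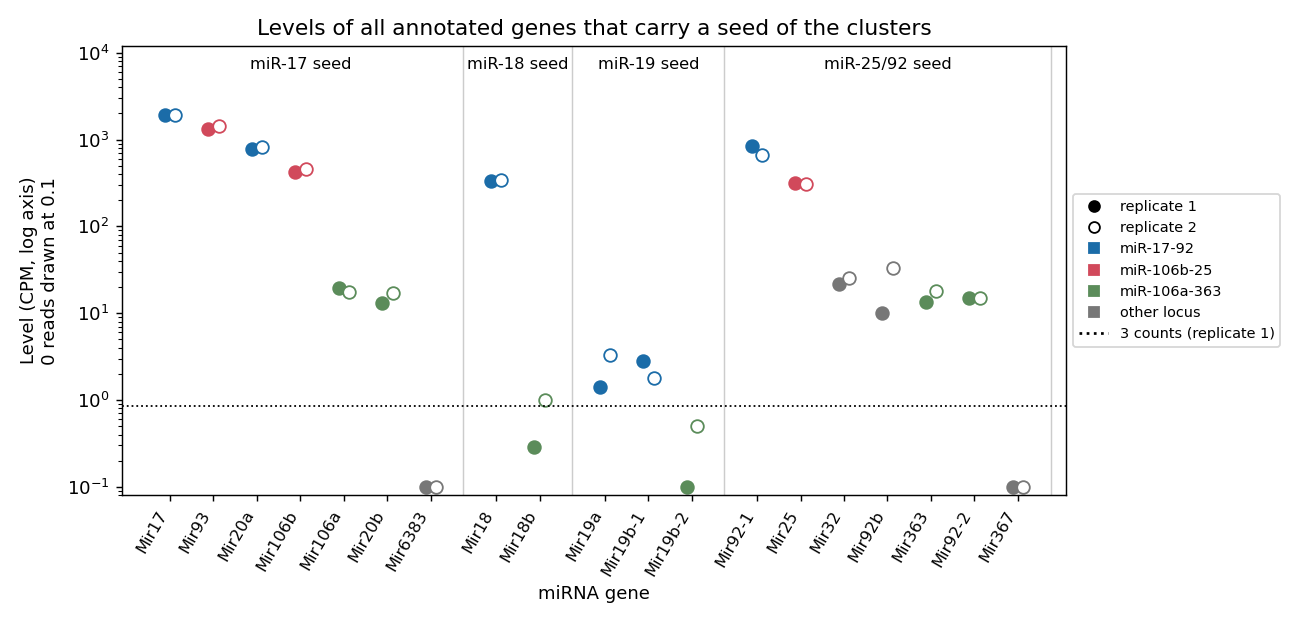
Level in CPM on a log axis of each annotated gene that carries one of the 4 seeds, with filled points for replicate 1, open points for replicate 2 and colours for the cluster. In the miR-17 group, Mir17, Mir93, Mir20a and Mir106b sit between 419.6 and 1934 CPM and the X cluster genes between 13.1 and 19.4 CPM, while all genes of the miR-19 group lie under 4 CPM.

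Mir18 differs from miR-17-5p at C1U, A4G, U9A, A11C, C12U and G20A, and thus within the seed. It stood at 329.5 and 345 CPM (337 ± 11). There were 0.170 reads of Mir18 for each read of Mir17 in replicate 1 (0.160 to 0.181) and 0.180 in replicate 2 (0.169 to 0.190), and these intervals overlap. The X paralog Mir18b had 1 and 4 reads and was not detected. The hairpins of Mir18 and Mir18b share 17 bases from the start of the mature strand, and their mature sequences differ at A18U and A20U.

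The miR-19 genes were close to absent from the counts. Mir19a, the third hairpin of the transcript, had 5 reads in replicate 1 and 13 in replicate 2, or 1.42 and 3.29 CPM. Mir19b-1, the fifth, had 10 and 7 reads, or 2.85 and 1.77 CPM. Neither reached 2 CPM in both animals, and their values overlap. Mir17, cut from the same transcript, had 1358 reads for each read of Mir19a in replicate 1 (95% interval 582 to 4184) and 584 in replicate 2 (341 to 1097). Against Mir19b-1 the ratios were 679 (369 to 1417) and 1084 (526 to 2697).

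The counting rule may bear on these genes to different degrees. Reads that aligned to several places were counted on no gene. The mature miR-19b occurs in full at Mir19b-1 and at Mir19b-2 on the X chromosome, within a shared stretch of 25 bases. The next base distinguishes the copies (capital):

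Mir19b-1: ugugcaaauccaugcaaaacugaC

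Mir19b-2: ugugcaaauccaugcaaaacugaU

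A read that ends at or before the mature end fits both, so the count of Mir19b-1 is uncertain as a measure of miR-19b. Mir19b-2 had 0 and 2 reads. For Mir19a no such exact copy was found: its longest exact stretch in any other annotated precursor was 13 bases, in Mir19b-2. The search took exact matches only, and mature miR-19a differs from miR-19b at 1 base (U11C). Mir19a had 18 reads in both libraries together, and whether its reads were also placed at the miR-19b genes was not tested. Sequence outside annotated precursors was not searched, and how the library preparation captures each miRNA was not tested.

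The miR-25/92 group holds the detected member with the widest spread between animals. Mir92-1, the last hairpin of its transcript, stood at 847 CPM in replicate 1 and 664 CPM in replicate 2 (755 ± 129). Mir25, the last hairpin of the Mcm7 cluster, stood at 314 and 309 CPM (312 ± 3.58). Mir92-2 stood at 14.8 and 14.9 CPM (14.9 ± 0.0896), from 52 and 59 reads. Mir92-1 lay beside Mir20a in level, and the animals disagreed on their order: Mir92-1 exceeded Mir20a 1.09-fold in replicate 1 (1.03 to 1.15) and had 0.801 of its reads in replicate 2 (0.760 to 0.843).

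The 2 genes for miR-92a share the mature sequence whole. In the hairpins below the shared stretch of 22 bases is in capitals:

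Mir92-1: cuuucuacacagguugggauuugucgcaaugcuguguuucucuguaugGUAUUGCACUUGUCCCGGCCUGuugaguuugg

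Mir92-2: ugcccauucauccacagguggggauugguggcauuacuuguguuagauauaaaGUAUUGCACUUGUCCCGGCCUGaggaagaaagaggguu

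The base just after the capitals differs between the hairpins, so a read longer by that base can be placed, as can a read of the opposite arm. Which of these make up the counts cannot be read from gene totals. Among placed reads Mir92-1 exceeded Mir92-2 57.2-fold in replicate 1 (95% interval 43.5 to 76.7) and 44.4-fold in replicate 2 (34.3 to 58.5). Both levels are uncertain as measures of miR-92a. Of the 10 members, Mir19b-1, Mir92-1 and Mir92-2 (3 in all) share a window of 22 bases with another precursor, against 1032 of all 2202 genes (46.9%). Mir19b-1 was not detected. Among the 8 detected members only Mir92-1 and Mir92-2 share such a window, against 59 of the 332 detected genes (17.8%).

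Outside the members, 3 detected genes with the miR-25/92 seed lay at low levels. Mir32 stood at 21.9 and 25.3 CPM, Mir363 of the X cluster at 13.4 and 18 CPM, and Mir92b at 9.97 and 32.9 CPM. Mir92b was 3.30-fold higher in replicate 2 (exact test described below, adjusted p = 4.53e-11). Mir367 had 0 reads. The members held 96.3% of the group in replicate 1 and 92.8% in replicate 2. The group sum was 1221 and 1064 CPM, while the miR-17 group sum was 4495 and 4661 CPM.

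**Figure D2:**
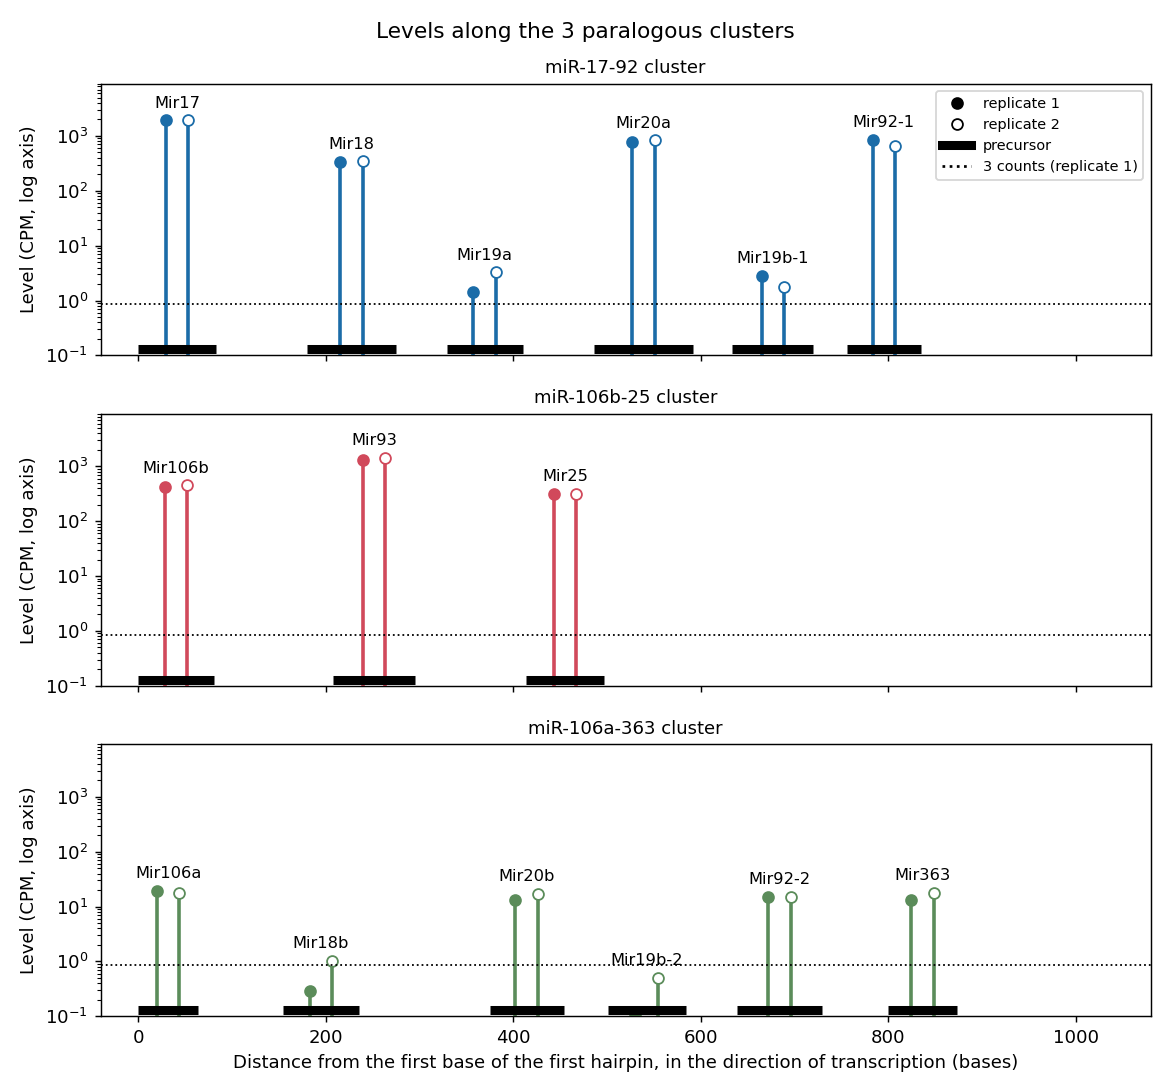
Level in CPM on a log axis against distance in bases from the first hairpin, in the direction of transcription, for the miR-17-92, miR-106b-25 and miR-106a-363 clusters; filled points are replicate 1, open points replicate 2, and black bars the precursors. Within miR-17-92, the miR-19 hairpins sit under 4 CPM between neighbours of 329.5 to 847 CPM, and in the X cluster Mir18b and Mir19b-2 lie near or under the level of 3 counts.

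Genes cut from the same transcript differed in their share of its reads. Within miR-17-92, Mir17 took 49.7% in replicate 1 (exact 95% interval 48.9% to 50.5%) and 51.0% in replicate 2 (50.2% to 51.8%). Mir20a took 20.0% and 22%, Mir92-1 21.8% and 17.6%, and Mir18 8.47% and 9.17%. The miR-19 genes took under 0.1% each in either animal. Mir17 exceeded the lowest member 1358-fold in replicate 1, where that was Mir19a, and 1084-fold in replicate 2, where it was Mir19b-1, whose count is uncertain. Among the 4 detected members the highest mean exceeded the lowest 5.71-fold, and the median of this range over the 43 genomic clusters was 17.9-fold.

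In the Mcm7 cluster the middle hairpin led. Mir93 took 64.5% of its reads in replicate 1 (63.4% to 65.6%) and 65.1% in replicate 2 (64.1% to 66.1%). Mir106b took 20.3% and 20.7%, and Mir25 15.2% and 14.2%. Mir93 exceeded Mir106b 3.18-fold and 3.14-fold, and Mir25 4.24-fold and 4.60-fold, with overlapping intervals between animals for both. No member of this cluster shares 18 bases with another annotated precursor.

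The X cluster, which holds Mir92-2, divided more evenly over its detected genes. Mir92-2 took 24.3% of 214 reads in replicate 1 (18.7% to 30.6%) and 21.6% of 273 in replicate 2 (16.9% to 27.0%). Mir106a took 31.8% and 25.3%, Mir20b 21.5% and 24.9%, and Mir363 22% and 26%, all with intervals that overlap that of Mir92-2. Its highest detected gene exceeded its lowest 1.24-fold. Gene by gene, the chromosome 14 cluster exceeded the X cluster 105-fold for Mir17 over Mir106a (± 7.15), 53.7-fold for Mir20a over Mir20b (± 7.87) and 50.8-fold for Mir92-1 over Mir92-2 (± 8.99), the last uncertain because of the shared sequence.

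**Figure D3:**
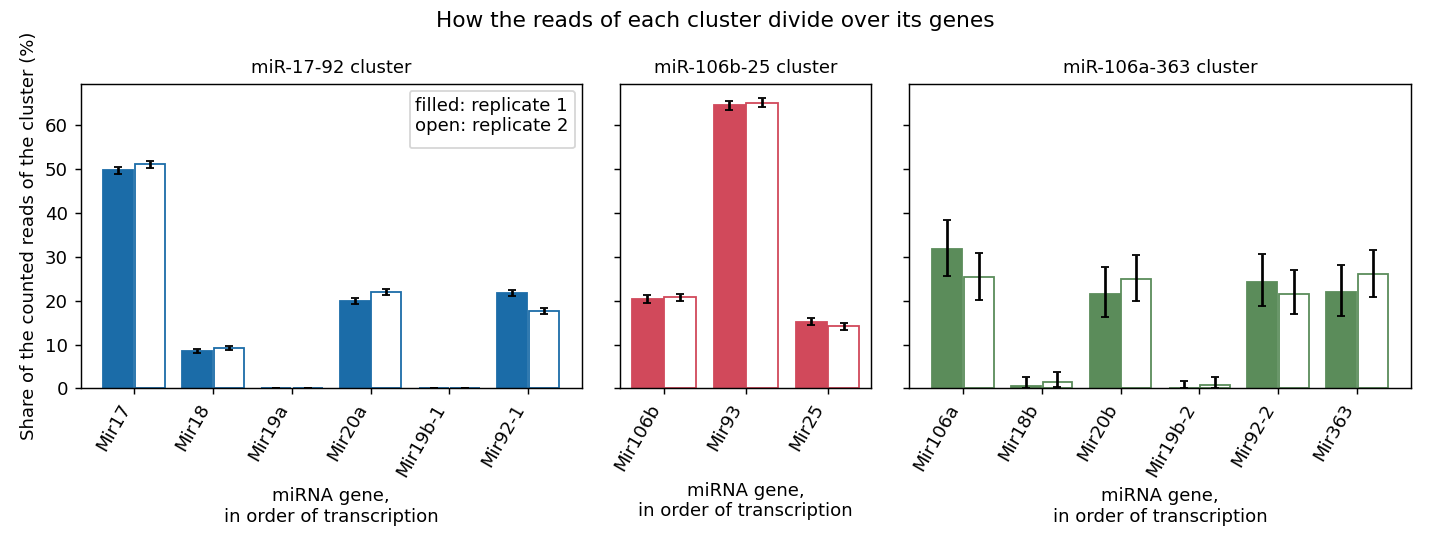
Share in percent of the counted reads of each cluster held by each gene, in order of transcription; filled bars are replicate 1, open bars replicate 2, and error bars exact 95% intervals (counting error only). Mir17 holds 49.7% and 51.0% of miR-17-92, Mir93 64.5% and 65.1% of miR-106b-25, and Mir92-1 21.8% and 17.6% of miR-17-92.

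The libraries were then compared gene by gene, with an exact conditional binomial test and Benjamini-Hochberg adjustment over 395 genes. The test compares these libraries, not conditions, and its intervals cover counting error only. Genes were called where the libraries differed at least 2-fold with an adjusted p below 0.05. No member was called (0 of 10, with 4 at an unadjusted p under 0.05), against 7.09% of all genes tested. Without the fold limit 3 of 10 members passed, against 41.3% of all genes.

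Mir92-1 was the only member to pass without the fold limit as lower in replicate 2, and 24.3% of all genes did so. Its level there was 0.784 of that in replicate 1 (95% interval 0.744 to 0.827, exact test, adjusted p = 8.39e-19). The ratio of Mir92-1 to Mir17, which needs no library size, was 0.438 in replicate 1 (0.419 to 0.457) and 0.346 in replicate 2 (0.330 to 0.361). Several other quantities also differed between the libraries. Reads aligned to several places, among which miR-92a reads can fall, were 42.6% of the file in replicate 1 and 46.4% in replicate 2. Both erythroid markers were detected, with a sum of 2066 CPM in replicate 1 and 1865 CPM in replicate 2, and all 5 leukocyte markers, with 1099 and 974 CPM. The liver marker Mir122 stood at 491 and 176 CPM, and the 9 skeletal muscle markers held 11.7% and 9.61% of the counted reads. These sums were lower in replicate 2, as Mir92-1 was, but not every gene in them was. The skeletal muscle sum was nearly all Mir206 (115948 and 95264 CPM), so its direction was that of Mir206. Mir499 (336 and 344 CPM), Mir486 (190 and 235 CPM), Mir208b (82.6 and 120 CPM) and Mir133b (27.3 and 34.2 CPM) were higher in replicate 2. At low levels, Mir1a-1, Mir133a-1 and Mir133a-2 were also higher there. Among the leukocyte markers Mir155 was higher in replicate 2 (181 and 186 CPM). Other lists were higher in replicate 2. The endothelial marker stood at 42036 and 46314 CPM. The 6 markers of smooth muscle and stroma held 2.75% and 3.28%, mostly from Mir143 (22806 and 29190 CPM). In that list Mir145a stood at 675 and 702 CPM. Mir214 (3900 and 2781 CPM), Mir199a-2 and Mir199b were lower in replicate 2, and Mir199a-1 had 1 read in each library. The 7 neural markers summed to 243 and 369 CPM, with 4 of them at 0 reads. Nearly all of that sum was Mir338 (243 and 367 CPM), the only neural marker detected. The part of these in the level of Mir92-1 was not tested.

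Mir93 and Mir20a passed as higher in replicate 2, and 17% of all genes did so. Mir93 was 1.07-fold higher (1.03 to 1.11, exact test, adjusted p = 0.00273). Mir20a was also 1.07-fold higher (1.01 to 1.12, exact test, adjusted p = 0.0301), and it missed the threshold when genes of any count were tested (adjusted p = 0.0517, range over the alternatives 0.000308 to 0.0517). Mir106b, at 1.08-fold (1.01 to 1.16), did not pass by the exact test (adjusted p = 0.0669) but did so with DESeq2 size factors (0.00405) and with counts made without strand (0.0144). The common biological coefficient of variation that edgeR estimated over 320 genes was 0.188, as a fraction of the level. The coefficient of variation between the animals was 17.1% for Mir92-1 and lower for each of the other 7 detected members.

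For the other members no difference was resolved. The fold in replicate 2 over replicate 1 was 0.993 for Mir17 (0.961 to 1.03), 1.05 for Mir18 (0.968 to 1.13) and 0.984 for Mir25 (0.906 to 1.07). It was 1.01 for Mir92-2 (0.683 to 1.49), where 111 reads in both libraries leave a wide interval. For Mir19a (2.31, 0.773 to 8.28) and Mir19b-1 (0.622, 0.201 to 1.81) the reads were too few to show even a 2-fold difference. The median absolute log2 ratio was 0.09 over the 10 members and 0.27 over all 395 genes, which are on the whole of lower count. Among genes of at least 100 CPM it was 0.09 for 7 members and 0.13 for all 181.

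**Figure D4:**
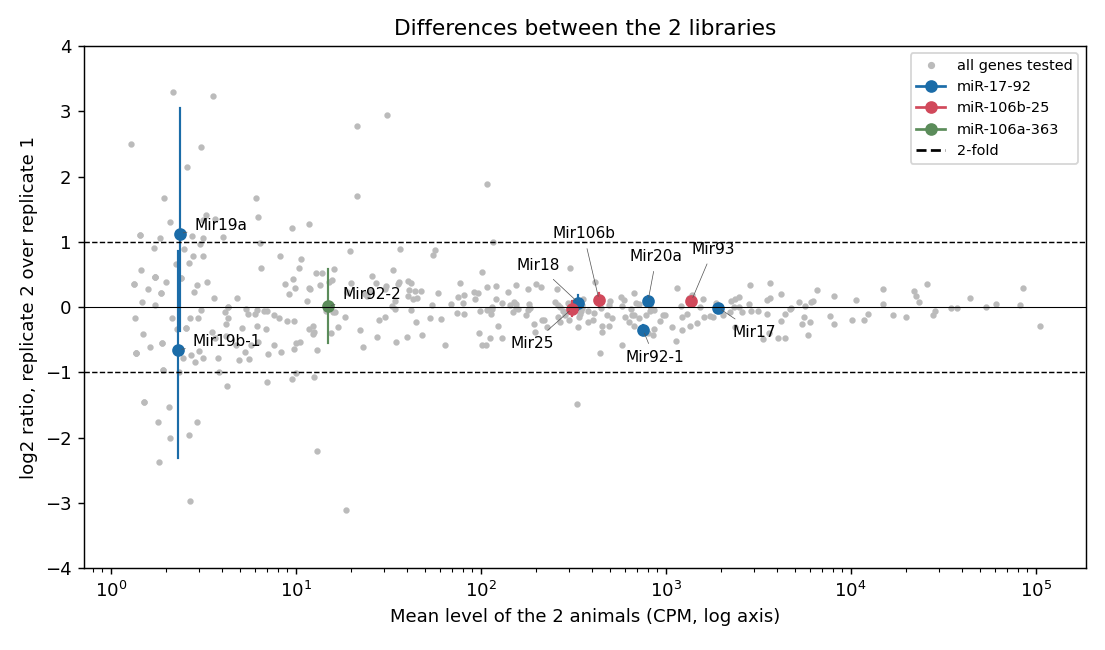
Log2 ratio of replicate 2 over replicate 1 against mean level in CPM on a log axis, with all 395 tested genes in grey, members in colour with 95% intervals, and dashed lines at 2-fold. The 7 members above 100 CPM lie between -0.35 (Mir92-1) and 0.11 (Mir106b), and the intervals of Mir19a and Mir19b-1 cross 0.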

How the data were processed

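The authors deposited, per library, raw read counts per miRNA gene, each counted without strand, in sense and in antisense. Per the descriptions deposited with the counts, the build was mm10 and the annotation GENCODE M21. The aligner and its settings were not given in the sources used here. Column roles were read from the layout and totals. Sense counts were used, and 4 summary rows stayed out of totals. The 10 members had 0 antisense reads and equal counts with and without strand. All 2202 identifiers matched the annotation.

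CPM are counts per 1000000 sense reads, and 3 counts, the limit that a count of 0 allows, equal 0.854 and 0.760 CPM. Tests needed 10 counts over both libraries, and log2 ratios had 0.5 added. Intervals on ratios are exact (Clopper-Pearson). Reads carry no molecular identifiers, so intervals cover counting error only. The animals are biological replicates per the labels but carry the same donor entry, read as the strain's. Tools were Python 3.11.15, scipy 1.17.1, R 4.3.3, edgeR 4.0.16 and DESeq2 1.42.0. The test was tried on simulated counts that held counting error only and no spread between animals.

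Members, lists and tests were chosen with earlier results of these data known. Named genes were the members, the X cluster, detected genes of the same seed and the nearest genes in level to Mir17 and Mir93. The limit of 100 CPM was set after seeing the data. Alternatives were other totals, unstranded counts, other minimums and folds, other windows and each animal alone.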

Additional observations from a re-analysis of the deposited data

How the results depend on the processing

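With all reads of the file as total the 10 members summed to 2443 CPM, miR-17-92 to 1568 and miR-106b-25 to 869. With counts made without strand, whose total is smaller, the sums were 7142, 4579 and 2544 CPM. DESeq2 size factors gave 5959 CPM for the 10 members, a shift above the small SD of 5.50 CPM. Without members that share a window of 22 bases, which removes Mir92-1 and Mir19b-1, the ratio of miR-17-92 to miR-106b-25 was 1.45 in place of 1.80. This setting removed no member of miR-106b-25, so the ratio could only fall. Leaving out either animal gave 1.72 to 1.88 for the ratio with all members.

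Without a fold limit 3 members and 163 genes in all passed the exact binomial test, against 0 and 28 with it. The log2 ratio of Mir17 was -0.01 and turned to 0.0442 with DESeq2 size factors and 0.0237 without strand, and that of Mir25 was -0.02 and turned to 0.0304 and 0.00986. None of these passed the test. Mir92-1 stayed lower in replicate 2 under all 4 alternatives run for it (exact test, adjusted p 1.90e-19 to 9.76e-14). Of 40 alternative log2 ratios of members, 33 kept direction and side of the threshold. At limits of 5 and 10 CPM 8 members were detected, and at 1 CPM all 10. Depth limits Mir19a and Mir19b-1, with 18 and 17 reads in all.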
